A study of Sus scrofa with 8 samples.

Results

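The SLC12 genes encode the cation-chloride cotransporters, membrane proteins that carry chloride together with sodium, potassium or both. The 8 members examined here, SLC12A1, SLC12A2, SLC12A3, SLC12A4, SLC12A5, SLC12A7, SLC12A8 and SLC12A9, were chosen by gene name from the 30390 genes of the annotation that the authors edited and deposited. Other genes of the family were not analysed here. The study profiled the tracheal submucosal glands (SMG) of newborn pigs by 3′ single-cell RNA sequencing, with 4 libraries from wild-type animals and 4 from CFTR-/- animals, which lack the anion channel that is mutated in cystic fibrosis. Reads of all 8 libraries were assigned to genes with this single annotation of the Sscrofa11.1 pig genome. It holds the place of each exon and coding segment and no value per animal, so wild-type and CFTR-/- glands cannot be compared, the depth per library is unknown, and no length carries an error between replicates. Genes are not replicates, and no p-value is given for any comparison.

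Sodium-dependent members bring chloride into the cell, driven by the sodium gradient. SLC12A2 (NKCC1) sits in the basolateral membrane of secretory epithelia, where it loads the cell with the chloride that leaves through apical channels such as CFTR. SLC12A1 (NKCC2) and SLC12A3 (NCC) reabsorb salt in the kidney. SLC12A4 (KCC1), SLC12A5 (KCC2) and SLC12A7 (KCC4) are potassium-chloride cotransporters, which usually let chloride out, and SLC12A5 is best known from neurons. The WNK kinases and the kinases SPAK and OSR1 below them activate the sodium-dependent class and inhibit the potassium-chloride class. SLC12A8 and SLC12A9 are more distant relatives with less settled transport roles, and they were kept out of the main comparison of the classes.

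The protein sequences encoded by the annotated exons separated the members as their names do. All 26 coding transcripts of the 8 genes opened with a start codon, closed with a stop codon and held no stop in between when read from the genome. In an alignment of the protein with the longest coding sequence of each gene, identity was 64.7% between SLC12A1 and SLC12A2 and 53.0% to 53.8% between either of them and SLC12A3. The potassium-chloride members shared 69.5% to 73.0% of their aligned residues with each other. Across the classes, the 9 pairs ranged from 29.7% to 32.7%. SLC12A8 and SLC12A9 stood at 27.0% to 29.5% against every other member and 28.2% against each other.

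The classes had similar numbers of coding exons and cut their coding sequence at different places. SLC12A1 and SLC12A3 had 26 coding exons and SLC12A2 had 27. SLC12A5 and SLC12A7 had 26 and SLC12A4 had 24. Both class medians were 26 coding exons, against 7 over all 20661 nuclear protein-coding genes and 13 in each of SLC12A8 and SLC12A9. When introns were placed on the protein alignment, 22 positions were common to all 3 sodium-dependent genes and 23 to all 3 potassium-chloride genes. The same position here means the same alignment column and the same phase, the place within a codon where the intron falls. Every pair of genes from different classes shared 1 intron, and it was the same one in all 6 genes, at column 962 in phase 2. A further intron lay in phase 1 at neighboring columns, 361 in the sodium-dependent and 360 in the potassium-chloride genes. It was not counted as shared. SLC12A8 shared 1 position with each potassium-chloride gene and SLC12A9 shared none with any member. Closely related genes tend to keep introns in place, so shared positions within a class are not independent of the identity given above.

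**Figure D1:**
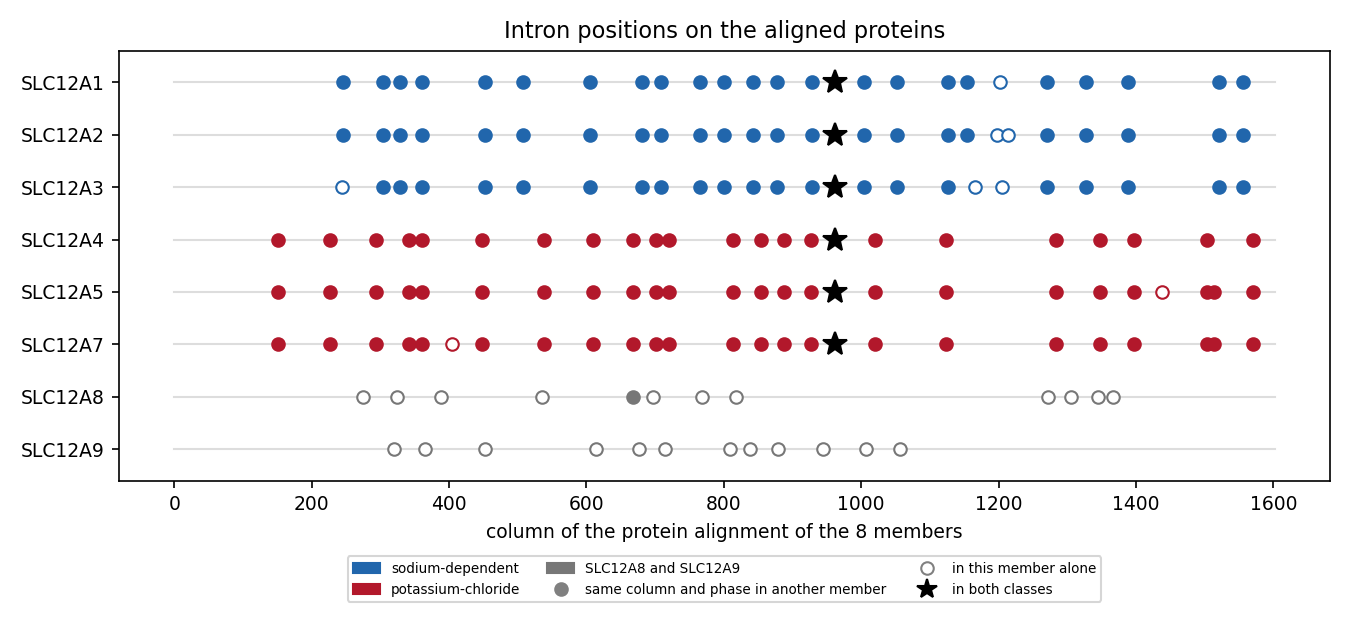
Introns of the 8 members (1 line each) by column of their protein alignment. Filled circles mark introns at the same column and phase in another member, open circles introns of that member alone, and stars the position at column 962 that all 6 genes of both classes share. The 22 common positions of the sodium-dependent genes and the 23 of the potassium-chloride genes form separate sets apart from that position.

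Exon lengths were mostly equal within a class. Exons between introns at the same column and phase can differ in length only where the alignment has gaps, in steps of 3 bp. Equal lengths are therefore largely set by the common intron positions and are not a separate likeness. Of the 20 single exons bounded on both sides by introns common to the sodium-dependent genes, 17 had the same length in all 3 genes, and the other 3 differed by at most 3 bp. SLC12A1, SLC12A2 and SLC12A3 thus all ran through exons of 76, 96, 140 and 111 bp as coding exons 3 to 6. Among the potassium-chloride genes, 16 of 19 such exons were equal and the other 3 differed by at most 9 bp. A run of 175, 119, 99, 120, 105, 169, 196, 170, 132 and 108 bp was the same in SLC12A4, SLC12A5 and SLC12A7. Internal coding exons were somewhat shorter in the sodium-dependent class, with a median of 111 to 112 bp per gene, than in the potassium-chloride class, with 131.5 to 132 bp, and the median over all protein-coding genes was 125 bp.

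**Figure D2:**
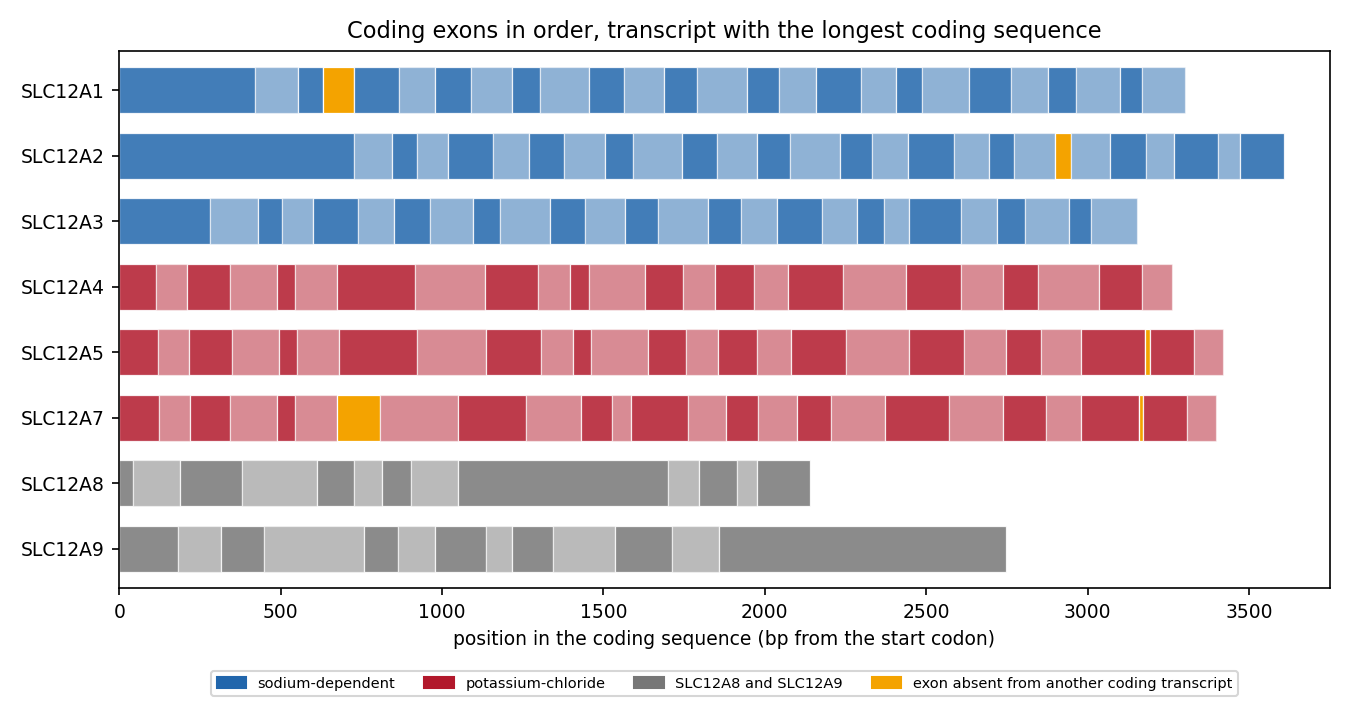
Coding exons in order and to scale for the transcript with the longest coding sequence of each member. The x axis is the position in the coding sequence in bp, shades alternate between exons, and yellow marks exons that another coding transcript of the gene lacks. The sodium-dependent genes open with a first coding exon of 282 to 726 bp and the potassium-chloride genes with one of 115 to 124 bp.

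The classes differed at the amino end, in the length of the first coding exon. The first coding exon was 420 bp long in SLC12A1, 726 bp in SLC12A2 and 282 bp in SLC12A3. It was 115 bp in SLC12A4, 121 bp in SLC12A5 and 124 bp in SLC12A7, and the ranges of the classes did not overlap. The median over all protein-coding genes was 139 bp. The sodium-dependent values exceeded those of 69.9% to 85.4% of protein-coding genes, and the potassium-chloride values those of 42.9% to 45.5%. The proteins of a class also had little in common at the amino end. Before the first common intron, 23.8% of the columns filled in all 3 sodium-dependent proteins were identical in all 3, against a median of 48.3% over the stretches between common introns. That first stretch covers the first 2 coding exons of the sodium-dependent genes (130 such columns). In the potassium-chloride class, where it is the first coding exon alone (37 columns), the values were 21.6% and 72.0%. The only stretch with a lower value in either class was stretch 22 of the potassium-chloride genes, near the carboxyl end, with 13.6%, where SLC12A5 has exons of 123 and 200 bp in place of 1 exon of 188 bp in SLC12A4 and 179 bp in SLC12A7. The most constant stretch of the sodium-dependent class was its 102-bp exon 13 (82.4% identical in all 3), and that of the potassium-chloride class was its 55-bp exon 5 (94.4%).

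The amino end also carried the letters that SPAK and OSR1 dock to. Their known docking motif is an arginine, a phenylalanine, any residue, and then a valine or isoleucine (RFxV or RFxI). In the first 150 residues, SLC12A1 held 2 such motifs, beginning at residues 20 and 57. SLC12A2 held 2, at residues 80 and 128, and SLC12A3 held 1, at residue 19. Among the potassium-chloride genes the motif was found in SLC12A5 alone, at residue 4, and there only in the 2 transcripts (variants X1 and X2) that use the upstream start codon. Variants X3 and X4 of SLC12A5, which start 7441 bp farther downstream, had none, nor did SLC12A4, SLC12A7, SLC12A8 or SLC12A9. The motif was present in the longest protein of 4 of the 8 members, and 2.78% of all protein-coding genes held it in the same window. A match of these letters is a description and not a measured binding site.

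Coding length did not separate the classes. Coding sequences without the stop codon were 3300 bp (1100 residues) in SLC12A1, 3606 bp (1202 residues) in SLC12A2 and 3150 bp (1050 residues) in SLC12A3. They were 3258 bp (1086 residues) in SLC12A4, 3417 bp (1139 residues) in SLC12A5 and 3396 bp (1132 residues) in SLC12A7. The median of the sodium-dependent class minus that of the potassium-chloride class was -96 bp, less than the pooled SD of 175 bp between members of a class. SLC12A9 was shorter, at 2745 bp, and SLC12A8 the shortest, at 2136 bp (712 residues). Counted with the stop codon, the last exon of SLC12A9 held 890 coding bp, against 92 bp in each potassium-chloride gene and 136 to 142 bp in each sodium-dependent gene.

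Sodium-dependent genes were spread over more DNA. SLC12A1 lies on the minus strand at chr1:123481892-123571655 (89764 bp). SLC12A2 lies on the plus strand at chr2:131016430-131109307 (92878 bp), and SLC12A3 on the plus strand at chr6:18844752-18885497 (40746 bp). SLC12A4 lies on the minus strand at chr6:28554162-28576458 (22297 bp), SLC12A5 on the plus strand at chr17:48192072-48230674 (38603 bp) and SLC12A7 on the plus strand at chr16:79356868-79396652 (39785 bp). The difference of the medians was 51161 bp with a pooled SD of 21801 bp, and the classes did not overlap, but SLC12A3 exceeded SLC12A7 by little. Introns carried the difference. Their median length was 960 to 2008 bp in the sodium-dependent genes and 238 to 613 bp in the potassium-chloride genes. Over all protein-coding genes the median of this value was 1564 bp. The potassium-chloride genes all lay below it, and the sodium-dependent genes lay on both sides of it. The median span over all protein-coding genes was 19194 bp, below the span of every gene of both classes. SLC12A8, at chr13:135105723-135249124 on the plus strand, was the longest of the 8 genes (143402 bp, median intron 7987 bp). SLC12A9, at chr3:8696593-8712904 on the plus strand, was the shortest (16312 bp, median intron 189 bp), although both genes have 13 coding exons.

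Alternative coding exons were annotated in 4 of the 8 members, 2 in each class. An exon was counted when it lay inside an intron of another coding transcript of the gene. SLC12A1, SLC12A2, SLC12A5 and SLC12A7 had such exons, and 22.6% of all protein-coding genes did. The exons were 96, 96, 48, 15, 132 and 15 bp long, all multiples of 3, so that each keeps the reading frame. More than 1 coding path was annotated in 6 of the 8 members, with SLC12A4 and SLC12A8 the exceptions, against 40.3% of all protein-coding genes. SLC12A4 has a single transcript, which is a curated RefSeq model, while the other 7 genes have predicted models that may list more variants.

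In SLC12A1 the choice was between alternative versions of coding exon 4, both 96 bp long and never in the same transcript. Coding exons of equal length that exclude each other were annotated in 0.295% of protein-coding genes, and SLC12A1 was the only member with them. In rabbit, mouse and human, variants of this exon, called A, B and F, give NKCC2 proteins that differ in their affinity for chloride and in where along the kidney tubule they are made. The pig annotation has an upstream exon at chr1:123551760-123551855, used by variant X1, and a downstream one at chr1:123551147-123551242, used by variant X2. They were identical at 55 of 96 bases and at 21 of the 31 residues that they encode in whole codons. The counterpart exon of SLC12A2 was identical to the upstream exon at 67 of 96 bases and to the downstream exon at 61.

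A further stretch with the same properties lay in the same interval and is not annotated. Between coding exons 3 and 5 of SLC12A1 (8149 bp), 6 stretches of 96 bp followed an AG, preceded a GT and had no stop codon in the frame of exon 4. Of these, 2 were the annotated exons. Another one, at chr1:123552390-123552485, 4638 bp after exon 3 and upstream of both, was identical to the upstream exon at 24 of 31 residues and 62 of 96 bases, and to the downstream exon at 23 residues and 67 bases. The other 3 stretches matched either exon at 5 residues or fewer. Whether the unannotated stretch is spliced into any transcript was not tested, since the annotation holds no reads. The first 30 bases of the 3 stretches, read 5′ to 3′ on the minus strand of Sscrofa11.1, are shown to let them be compared, with capitals at the positions where they are not all alike.

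SLC12A1 unannotated stretch, chr1:123552456-123552485: gtcttggTgtGAtTatCatCGGCTtAGCCG

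SLC12A1 upstream exon, chr1:123551826-123551855: gtcttggAgtTCtCatAatTCTTCtTTCCA

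SLC12A1 downstream exon, chr1:123551213-123551242: gtcttggAgtCAtCatCatTGGCCtGAGTG

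The 3 stretches opened with the same 7 bases and then diverged. Positions that were not alike in all 3 numbered 17 among bases 1 to 32, 17 among bases 33 to 64 and 14 among bases 65 to 96, so that they ran through the whole exon.

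**Figure D3:**
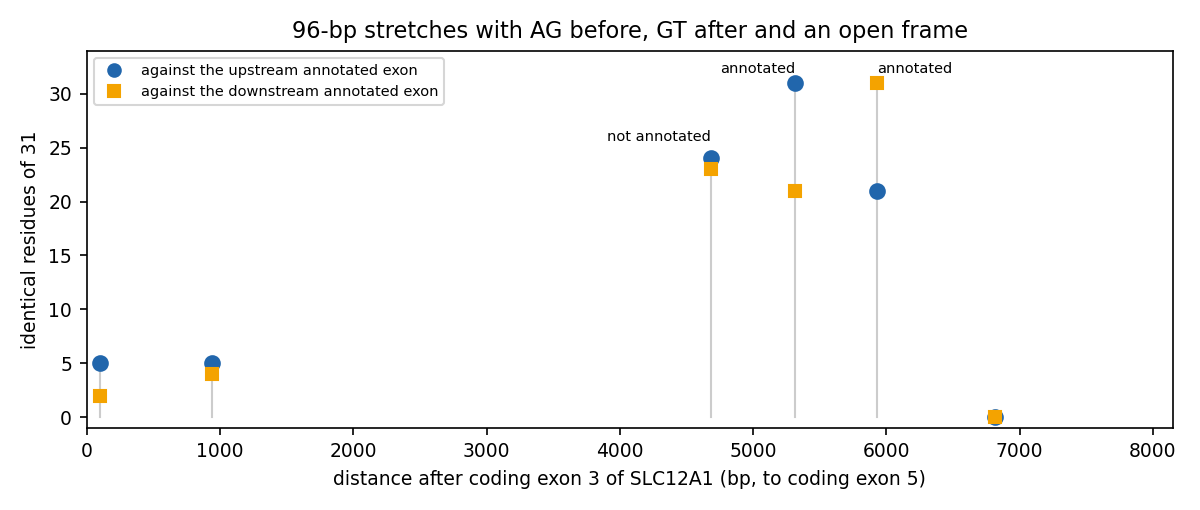
Stretches of 96 bp between coding exons 3 and 5 of SLC12A1 with an AG before, a GT after and an open frame. The x axis is the distance after exon 3 in bp and the y axis the number of identical residues of 31, with circles for the comparison with the upstream annotated exon and squares for the downstream one. The unannotated stretch 4638 bp after exon 3 reaches 24 and 23 residues, and the other 3 unannotated stretches 5 or fewer.

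SLC12A2, the basolateral cotransporter of gland cells, had 1 alternative exon. Coding exon 21, 48 bp at chr2:131098081-131098128, encodes 16 residues, beginning in the codon after residue 966. Variant X1 includes it and variant X2 does not, which makes proteins of 1202 and 1186 residues. NCBI's record for each predicted model gives the number of RNA-seq samples in which all its introns were found. These samples were gathered by NCBI and are not the animals of this study. Variant X1 was supported in 137 samples and 197 long reads, and variant X2 in 81 samples and 103 long reads. The intron after this exon began with GC in place of the usual GT. It was the only intron of the 8 genes that did so, in 176 introns of the transcripts measured, and 1.02% of the introns of all protein-coding genes had a GC donor. Both ends of the exon are shown on the plus strand, first with the exon bases in capitals and then with the GC donor in capitals.

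SLC12A2 exon 21 start, chr2:131098075-131098104: atctagATGAGGAAGAGGATGGCAAGACTC

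SLC12A2 exon 21 end, chr2:131098109-131098138: tcaaccactgttgaaaaaagGCaggcattt

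SLC12A3 varied by alternative acceptors. It had no alternative whole exon but 2 pairs of such acceptors, in exon 2 (3 bp) and in exon 21 (60 bp), whose combinations give its 4 variants of 1050, 1049, 1030 and 1029 residues. Exon 21 of SLC12A3 is 162 or 102 bp long, and it lies in the same interval between common introns as the alternative exon of SLC12A2, although SLC12A3 has no residue at the column where that exon begins. In that interval SLC12A1 has exons of 83, 144 and 132 bp, SLC12A2 of 80, 126, 48 and 123 bp, and SLC12A3 of 83, 78 and 162 bp. It was the only interval between common introns of the class in which the number of exons differed, and 30.9% of its columns were identical in all 3 proteins. All 4 variants of SLC12A3 had the same support of 21 RNA-seq samples. The exon 2 acceptors form a tandem of 2 AGs, and the 3 bases that are kept or dropped are in capitals, followed by the inner acceptor of exon 21 with its AG in capitals.

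SLC12A3 exon 2 acceptors, chr6:18845509-18845538: tctctgggctcccagCAGgaaggcagccac

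SLC12A3 exon 21 inner acceptor, chr6:18869198-18869227: cctctgctttggcAGcggaccccgaggccc

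In the potassium-chloride class the alternative exons were mostly small. SLC12A5 and SLC12A7 each had a 15-bp exon as coding exon 24, with 2 coding exons after it. An internal coding exon under 30 bp was present in 8.66% of all protein-coding genes and in no other member. Both exons fell at the same column of the alignment (1504), in the same phase (2), and add 5 residues, and SLC12A4 has no exon there. They agreed at 9 of 15 bases. They are shown on the plus strand, with the exon in capitals between 7 intron bases on each side.

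SLC12A5 exon 24, chr17:48227470-48227498: cccgaagGGAGTGGGAGAACTTgtaagtg

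SLC12A7 exon 24, chr16:79391762-79391790: catgtagACAGTGGGGACACCTgtaagtc

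The measures of support did not order the forms of the small exon in SLC12A5 alike. Variants X1 and X3, which include it, were supported in 24 and 27 samples, and variants X2 and X4, which lack it, in 25 and 28. The pairs that share a start codon therefore differed by 1 sample. Long reads were more numerous with the exon, at 82 for X1 and 180 for X3, against 35 for X2 and 39 for X4. In SLC12A7, variants that differ in this exon alone were supported in 40 samples with it (X1) against 49 without it (X2), and in 102 with it (X5) against 150 without it (X6). Long reads followed the same order, at 42 for X1 against 101 for X2 and 45 for X5 against 202 for X6. The exon adds an intron that must be found, so a form that includes it meets a stricter condition.

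SLC12A7 had a second alternative exon with no counterpart in any other member. This 132-bp exon at chr16:79377435-79377566 is coding exon 7 and adds 44 residues after residue 225, at alignment columns that are gaps in the other 7 proteins. In SLC12A4 and SLC12A5 the 131-bp exon before it is followed directly by the 242-bp exon after it. In the 131-bp exon 88.6% of columns were identical in all 3 proteins, and in the 242-bp exon 52.5%, above and below the class median of 72.0%. Set against the coding exons of the same length in the 8 genes, its bases agreed at 25.0% to 35.6% of positions. Transcripts with the exon were supported in fewer samples than those without it. Variants X1 to X4 include it and were supported in 16 to 49 samples, while variants X5 and X6 lack it and were supported in 102 and 150. In pairs that differ in this exon alone, X1 stood against X5 with 40 and 102 samples and X2 against X6 with 49 and 150. Long reads were nearly equal in the first pair, at 42 for X1 and 45 for X5, and stood at 101 for X2 and 202 for X6. This exon, too, adds an intron that must be found. The transcript of SLC12A7 with the longest coding sequence is thus not the one with the most support, and without both alternative exons the gene has 24 coding exons, as SLC12A4 has. The start of the exon is shown on the plus strand with its bases in capitals.

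SLC12A7 exon 7 start, chr16:79377429-79377458: cggcagGTGACGTTGGGGCCTTCTGAGTCG

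**Figure D4:**
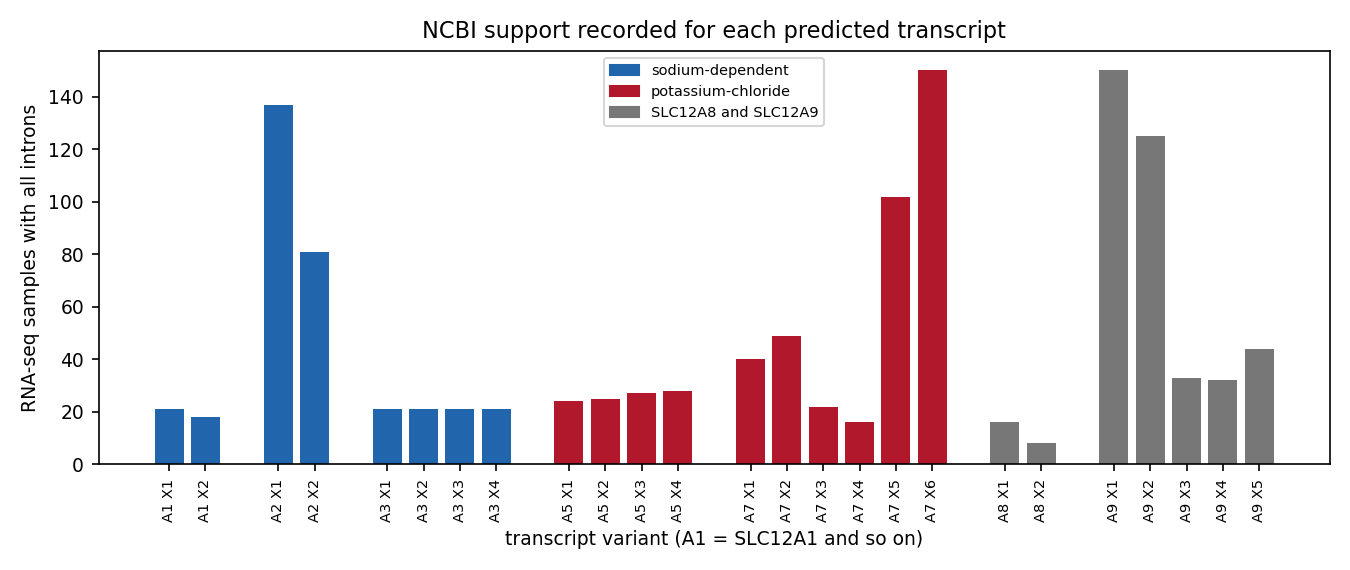
RNA-seq samples, gathered by NCBI, in which all introns of a predicted transcript were found (y axis) for each transcript variant (x axis), with bars colored by class. SLC12A4 has a curated transcript with no such record. Variants X5 and X6 of SLC12A7, which lack the 132-bp exon, reach 102 and 150 samples, and the 4 variants with it reach 16 to 49.

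More than 1 start codon was annotated in SLC12A5, SLC12A7 and SLC12A9, that is in 3 of the 8 members and in 22.8% of all protein-coding genes. None of the sodium-dependent genes had an alternative start. SLC12A5 had 2 starts 7441 bp apart, with first coding exons of 121 and 52 bp. In mouse and human, KCC2 proteins from alternative first exons are known as KCC2a and KCC2b. Support was 24 and 25 samples for the upstream start and 27 and 28 for the downstream one. SLC12A7 had 3 starts, at 1336 and 5673 bp after the first, with first coding exons of 124, 97 and 25 bp. The first start was used by 4 variants with 40 to 150 samples, and the others by 1 variant each with 22 and 16 samples. SLC12A9 had 2 starts 474 bp apart. Its 4 variants with the upstream start encode the same 915 residues from different first exons and were supported in 32 to 150 samples, and its variant X5 encodes 824 residues and was supported in 44. Variant X5 of SLC12A9 also differs by an alternative acceptor, which makes an exon 145 bp long in place of 132 bp. SLC12A8 has 2 alternative noncoding first exons and 1 protein.

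The 5′ UTR, the exon bases before the start codon, ranged widely within each class. It was 332 bp in SLC12A1, 187 bp in SLC12A2 and 47 bp in SLC12A3, and 31 bp in SLC12A4, 87 bp in SLC12A5 and 171 bp in SLC12A7. The medians differed by 100 bp, less than the pooled SD of 112 bp. How far transcripts of 1 gene differed varied between genes. The 5′ UTRs of SLC12A5 ran from 80 to 395 bp, those of SLC12A7 from 15 to 201 bp and those of SLC12A9 from 89 to 1400 bp. Those of SLC12A1 were 242 and 332 bp, those of SLC12A2 174 and 187 bp, those of SLC12A8 122 and 170 bp, and all 4 of SLC12A3 were 47 bp.

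The 3′ UTR, from the stop codon to the end of the transcript, is the part of the model where most reads of 3′ libraries fall. It was 3062 bp long in SLC12A2, 670 bp in SLC12A1 and 318 bp in SLC12A3. It was 2501 bp in SLC12A5, 1349 bp in SLC12A7 and 54 bp in SLC12A4, and 888 and 373 bp in SLC12A8 and SLC12A9. SLC12A2 and SLC12A5 therefore had longer 3′ UTRs than 87.1% and 82.4% of all protein-coding genes, whose median was 716 bp. The class medians differed by -679 bp, sodium-dependent minus potassium-chloride, which was smaller than the pooled SD of 1365 bp. A 3′ UTR under 100 bp was annotated in SLC12A4 alone among the 8 members and in 15.7% of all protein-coding genes. The stop codon and the 3′ end lie in the same exon in all 26 transcripts, and no gene had 3′ ends more than 5 bp apart, so the annotation gives each gene a single end.

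**Figure D5:**
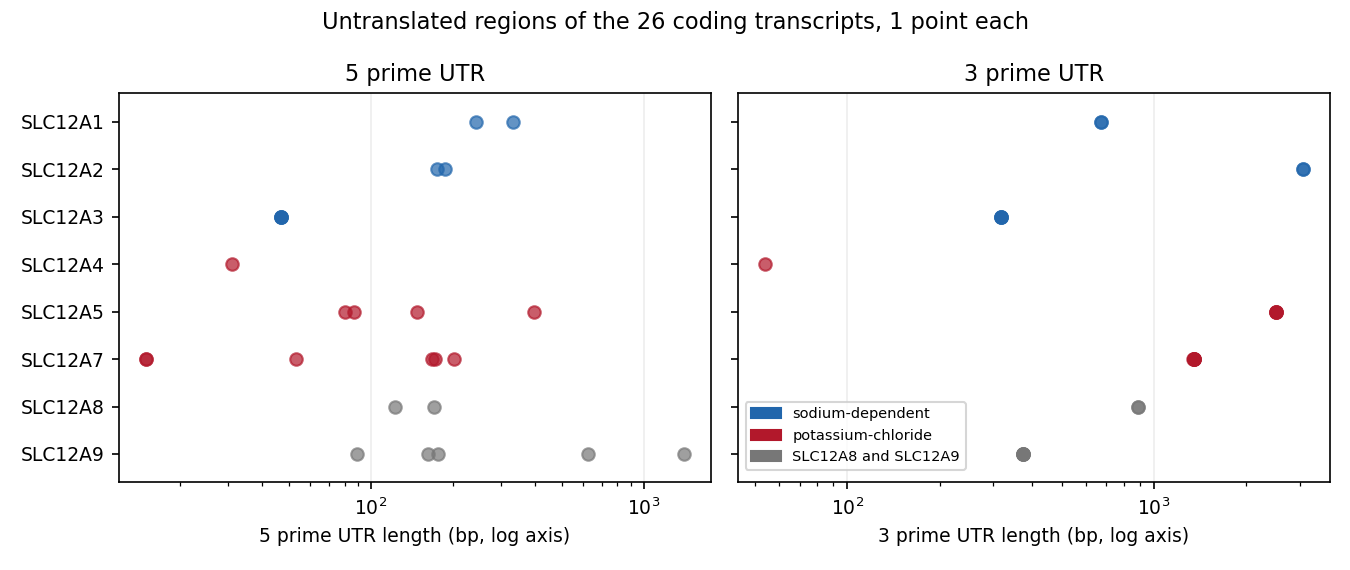
Length of the 5′ UTR (left) and the 3′ UTR (right) in bp on log axes, 1 point for each of the 26 coding transcripts, colored by class. The 5′ UTRs of a gene range most widely in SLC12A9, from 89 to 1400 bp, and coincide at 47 bp in SLC12A3, while the 3′ UTRs of a gene differ by at most a few bp and range from 54 bp in SLC12A4 to 3062 bp in SLC12A2.

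The 4 longest 3′ UTRs ended after a poly(A) signal, the hexamer that directs cleavage of the transcript. AATAAA lay 30 bp before the end of SLC12A5 and 25 bp before the ends of SLC12A7 and SLC12A8, and ATTAAA lay 25 bp before the end of SLC12A2. These were the 4 of 8 members with AATAAA or ATTAAA on the coding strand in the last 50 bp, and 60.9% of all protein-coding genes had one. SLC12A1, SLC12A3, SLC12A4 and SLC12A9 had none, and none in the last 100 bp. Past the annotated end, the first of these hexamers was an ATTAAA at 44 bp in SLC12A1 and an AATAAA at 405 bp in SLC12A4. In SLC12A3 and SLC12A9 none was found in the 2000 bp after the end. A missing match says only that these letters are not in the window.

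None of the 8 genes was on the authors' list of edited models, and every exon equaled that of the RefSeq models that were edited, so their ends are those of RefSeq. SLC12A4, with its 54-bp 3′ UTR, was therefore counted as RefSeq models it. Its 3′ end lies 600 bp before LCAT, an enzyme of cholesterol metabolism encoded on the same strand, and the AATAAA at 405 bp falls in that gap. SLC12A9 ends 316 bp before TRIP6, also on the same strand. SLC12A5 ends 815 bp from NCOA5 and SLC12A7 ends 3670 bp from NKD2, both on the opposite strand. The other members have at least 15673 bp to the next protein-coding gene at their 3′ side. Reads past the annotated ends were not analysed here.

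Exon bases shared with a gene on the same strand were found in SLC12A1 alone, and in 3.34% of all protein-coding genes. SLC12A1 and CTXN2, which encodes cortexin 2, shared 224 bp, namely all 139 bp of the noncoding first exon of SLC12A1 and 85 bp of its second, with no coding base among them. On the opposite strand, 197 bp of coding exons 5 and 6 of SLC12A1 overlapped exons of the noncoding RNA LOC102161909, and 144 bp of SLC12A5 overlapped those of the noncoding RNA LOC106506696. The first exon of SLC12A2 overlapped LOC100516424 by 112 bp. No overlap touched the last 500 exon bases of any member, the part nearest to the reads of 3′ libraries.

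SLC12A2 was also the member examined by single-molecule in situ hybridization in the study, with 5 target sequences of 40 bases. All 5 matched both variants exactly, and all lay in coding exons 2 to 9 of 27. They ended 5073 to 5858 bases before the 3′ end of the transcripts, far from the region read by the 3′ libraries, and none reached the alternative exon 21, so the targets do not tell variants X1 and X2 apart. One target spans the junction of exons 2 and 3, and its 30 bases around the junction are shown with the exon 2 bases in capitals. The first 30 bases of the most downstream target, in exon 9, follow on the plus strand.

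SLC12A2 target across exons 2 and 3: ATCAAGGGCGTACTAgtacgttgtatgtta

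SLC12A2 target in exon 9, chr2:131065705-131065734: ctcagtcagctataccgaaaggaacactcc

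Other chloride and bicarbonate carriers and the kinases of the pathway were measured in the same way. The 10 SLC4 genes (bicarbonate transporters) had a median of 23 coding exons and 3415.5 coding bp, near the values of the sodium-dependent and potassium-chloride genes. The 11 SLC26 genes (anion exchangers) had 19 exons and 2220 bp. Alternative coding exons were annotated in 3 of 10 SLC4 genes, 3 of 11 SLC26 genes and 3 of the 8 kinase pathway genes (WNK1 to WNK4, STK39, OXSR1, CAB39 and CAB39L), beside 4 of the 8 SLC12 members. More than 1 start codon was annotated in 6 SLC4 genes, 1 SLC26 gene and 3 pathway genes. The median 3′ UTR was 1909.5 bp in the SLC4 genes, 912 bp in the SLC26 genes and 2169 bp in the pathway genes, all above the 779 bp of the SLC12 members.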

How the data were processed

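Before depositing it, the authors edited NCBI's Annotation Release 106 of Sscrofa11.1 by elongating 3′ UTRs, shortening overlaps and renaming or adding genes, and they gave it to Cell Ranger (3.0.2 per the submitters' processing notes) to assign reads. The deposited values are coordinates in bp, counted from 1. Count matrices were not analysed here, and depth is unknown.

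Transcripts were measured by exon and coding segment. The main transcript was the one with the longest coding sequence, or, for 3′ UTRs, the one that ends farthest 3′. Proteins were translated from the reference genome, aligned with MAFFT 7.526 (local pairs, 1000 iterations), and introns compared by column and phase. All members were named, with their nearest protein-coding neighbors and overlapping genes. Members and lists were chosen with earlier results of these data known. In situ targets were matched to spliced transcripts. All comparisons are descriptive. The search for further versions of exon 4, the docking motif and the GC donors were added after the data were seen. Scripts ran in Python 3.11.15 with pysam 0.24.0, matplotlib 3.10.9 and samtools 1.23.1. In all, 21 alternatives were tried: another choice of transcript, the RefSeq models, the makeup of the potassium-chloride group, and the rules for alternative exons, starts, shared introns, poly(A) signals, overlaps and target matches.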

Additional observations from a re-analysis of the deposited data

How the results depend on the processing

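Under 18 of 21 alternatives, results stayed in the same direction and within the SD between members, or within 1.5 times a count. Some of these could not have moved. The RefSeq models have the same exons in all 8 genes, and allowing mismatches cannot remove an exact target match. For 3′ UTR length the SD of 1365 bp exceeded the difference itself, so that limit was loose. The tally of 18 is therefore not a measure of robustness. Adding SLC12A8 and SLC12A9 to the potassium-chloride group made the sodium-dependent median 2 coding exons higher (main value, 0). It turned the difference in coding length from -96 to 42 bp, since both genes have short coding sequences. It also brought the difference in 3′ UTR length from -679 to -218 bp, and the median over all coding transcripts brought that in coding length to -33 bp. Counting introns within 2 columns and in any phase as shared raised the number shared by a pair from different classes from 1 to 3. The difference in gene span stayed at 51606 bp when the coding span was used, and the number of members with a poly(A) signal was 3 with AATAAA alone. No paired analysis was possible because a gene model belongs to no single animal. Each class has 3 genes, so that medians rest on 1 gene, and predicted transcripts depend on the samples available to NCBI. Depth sets no limit here, because no reads were used.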

Other observations

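The base composition of the coding sequences did not follow the classes. SLC12A1 and SLC12A2, the sodium-potassium-chloride cotransporters, had G or C at 46.6% and 43.8% of the last positions of codons. SLC12A3, the sodium-chloride cotransporter of the same class, had 80.2%, close to the 75.7% of SLC12A4, the 76.3% of SLC12A5, the 71.4% of SLC12A8 and the 78.1% of SLC12A9. SLC12A7 was highest, at 91.4%. The first coding exon of SLC12A2 was 70.9% G or C, well above the 46.6% of its whole coding sequence. The same held less strongly in SLC12A4 (69.6% against 58.3%), SLC12A5 (66.9% against 58.8%) and SLC12A7 (77.4% against 65.2%). In SLC12A1 and SLC12A3 the first coding exon was only slightly higher, and in SLC12A8 and SLC12A9 it was lower.

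SLC12A3 and SLC12A4 are the only members that share a chromosome, chromosome 6, on opposite strands. The genome bases that follow the annotated ends of SLC12A1 and SLC12A9 were rich in A, with 7 of the first 10 bases, against 1 to 3 of 10 in the other members. Both are among the 4 members without a poly(A) signal in the last 50 bp. SLC12A3 and SLC12A4, which also lack one, had A at 1 and 2 of the first 10 bases. The share of all protein-coding genes with as many A bases after the end was not measured. Whether the position of the ends of SLC12A1 and SLC12A9 relates to the bases that follow was not tested.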
